A study of Mus musculus with 10 samples.

Results

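The 200 genomic regions described here were differentially methylated between stromal cells of gut-draining mesenteric lymph nodes (mLN) and skin-draining peripheral lymph nodes (pLN), and lay in the flank of a promoter. Differentially methylated regions (DMRs) had been called between the nodes once in specific pathogen-free (SPF) mice and once in germ-free (GF) mice. A DMR was taken when its deposited distance to the nearest transcriptional start site (TSS) was above 2000 and at most 5000 bp, which held for 117 of 806 DMRs of the SPF table and 161 of 1293 of the GF table. DMRs that overlapped by at least 1 bp were joined, which gave the 200 regions out of 1575 location regions at all distances. Of these, 82 were called higher and 118 lower in mLN than in pLN. Both tables called 68 regions, the SPF table alone 48 and the GF table alone 84, where only DMRs within the distance window are counted, here and below. Of the 48, 2 overlapped a GF-table DMR of another distance class, and of the 84, 4 overlapped such an SPF-table DMR. The nearest genes numbered 157, and 2 regions had no gene name.

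Whole-genome bisulfite sequencing, which reads methylated cytosines as cytosine and unmethylated ones as thymine, was performed on sorted CD45-CD31-Ter119-Pdpn+ non-endothelial stromal cells, the mesenchymal scaffold of the lymph node, from wild-type adult BALB/c mice. The 10 libraries comprised 3 of mLN and 3 of pLN from SPF mice, and 2 of mLN and 2 of pLN from GF mice. The pLN were inguinal and axillary or popliteal nodes, and the mLN drained small intestine and colon or caecum. The comparisons asked how far methylation depends on the location of the node and on the microbiota. The sources used here do not give how many mice went into a library, so p-values measure the spread between these libraries. The GF colony was founded by caesarean section at another institution than the one that bred the SPF mice, and the age ranges of GF and SPF mice overlapped without being equal. Housing therefore cannot be told apart from colony and facility. The tissue label of the pLN libraries names skin drainage but also the word mesenteric, so groups were taken from the sample titles. The authors left out 1 mLN GF and 1 pLN GF replicate as outliers. Of 7 fixed markers of lymph node fibroblastic stroma, Cxcl13 alone was the nearest gene of a location DMR, and that DMR lay outside the distance window. None of Ptprc, Pecam1 and Lyve1, genes of the cells removed by the sort, was the nearest gene of a location DMR. Methylation at these genes therefore gave no check of the sort.

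Cytosines followed by guanine (CpGs) are the main methylated sites of mammalian DNA. Promoters of developmental genes usually lie in CpG-rich stretches that stay unmethylated, and the flanks of these stretches, called shores, are known to carry tissue-specific methylation. Homeobox and T-box genes encode transcription factors that give embryonic mesenchyme its position along the body, and fibroblasts of adult organs are known to keep marks of that position.

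Stretches of 8 regions show which CpGs were measured. They were chosen from both directions and from the genes described most closely below. Letters are from GRCm38, 5′ to 3′ on the forward strand, with each CpG in capitals, and of a region longer than 300 bp the 300-bp window with the most CpGs is given. A CpG whose C is the last printed base stays in lower case, as at the end of the Emx2, Shox2, Meis1, Tbx18 and 4930505G20Rik stretches. Lower in mLN were the regions at Emx2, Shox2, Meis1 and Tbx18.
Emx2, chr19:59453400-59453656, forward strand: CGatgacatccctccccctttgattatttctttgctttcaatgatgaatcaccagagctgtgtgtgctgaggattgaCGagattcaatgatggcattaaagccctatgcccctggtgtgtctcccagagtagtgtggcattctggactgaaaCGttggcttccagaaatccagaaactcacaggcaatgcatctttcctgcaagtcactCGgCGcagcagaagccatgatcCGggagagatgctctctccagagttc
Shox2, chr3:66974059-66974347, forward strand: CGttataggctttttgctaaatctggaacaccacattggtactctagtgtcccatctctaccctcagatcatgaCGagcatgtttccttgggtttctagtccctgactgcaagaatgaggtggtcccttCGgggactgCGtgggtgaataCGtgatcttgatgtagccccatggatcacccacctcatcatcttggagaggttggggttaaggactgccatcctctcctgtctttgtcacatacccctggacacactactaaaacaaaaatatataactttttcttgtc
Meis1, chr11:19023331-19023607, forward strand: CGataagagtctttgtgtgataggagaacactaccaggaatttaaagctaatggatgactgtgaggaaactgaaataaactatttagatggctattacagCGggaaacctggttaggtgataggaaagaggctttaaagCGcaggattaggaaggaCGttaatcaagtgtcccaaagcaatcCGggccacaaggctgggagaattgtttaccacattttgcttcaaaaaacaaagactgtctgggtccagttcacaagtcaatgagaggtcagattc
Tbx18, chr9:87736201-87736384, forward strand: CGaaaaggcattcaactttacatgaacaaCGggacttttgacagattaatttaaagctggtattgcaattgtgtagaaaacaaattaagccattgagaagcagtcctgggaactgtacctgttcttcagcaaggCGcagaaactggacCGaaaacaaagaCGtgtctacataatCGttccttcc
Higher in mLN were the regions at Gm26523, Wt1, Isl1 and 4930505G20Rik.
Gm26523, chr1:163307644-163307943, forward strand: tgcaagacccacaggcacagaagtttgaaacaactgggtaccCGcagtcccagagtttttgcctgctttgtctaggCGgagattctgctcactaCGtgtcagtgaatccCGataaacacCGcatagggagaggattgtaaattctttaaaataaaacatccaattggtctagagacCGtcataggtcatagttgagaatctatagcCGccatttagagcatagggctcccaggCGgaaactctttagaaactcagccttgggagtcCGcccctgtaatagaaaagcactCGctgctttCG
Wt1, chr2:105134625-105134924, forward strand: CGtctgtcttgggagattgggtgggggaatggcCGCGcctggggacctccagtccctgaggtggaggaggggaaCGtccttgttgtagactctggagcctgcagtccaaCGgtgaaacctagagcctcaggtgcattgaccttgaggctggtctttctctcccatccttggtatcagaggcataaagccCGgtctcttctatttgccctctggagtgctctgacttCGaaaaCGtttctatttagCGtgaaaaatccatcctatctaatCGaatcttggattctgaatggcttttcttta
Isl1, chr13:116313607-116313906, forward strand: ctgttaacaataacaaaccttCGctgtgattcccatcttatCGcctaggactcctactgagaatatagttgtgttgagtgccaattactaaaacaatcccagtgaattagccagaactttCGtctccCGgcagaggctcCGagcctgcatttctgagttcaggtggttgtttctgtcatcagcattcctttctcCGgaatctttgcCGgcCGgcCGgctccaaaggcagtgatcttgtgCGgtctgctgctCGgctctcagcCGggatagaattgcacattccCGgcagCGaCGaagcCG
4930505G20Rik, chr14:115413764-115414025, forward strand: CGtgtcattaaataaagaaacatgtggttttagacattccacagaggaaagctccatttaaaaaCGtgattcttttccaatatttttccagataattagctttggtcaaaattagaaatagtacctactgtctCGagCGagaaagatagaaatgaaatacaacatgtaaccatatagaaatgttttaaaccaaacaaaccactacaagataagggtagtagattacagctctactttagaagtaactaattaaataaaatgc

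The mean levels of the nodes differed at nearly all of the CpGs in these stretches, except that 4930505G20Rik was not examined CpG by CpG. No single CpG was tested. For a single CpG, a node's level is the mean of its SPF mean and its GF mean, and the position counts from 1 at the first printed base. In the Emx2 stretch, the CpG at position 1 was methylated to 10.6% in mLN and 82.2% in pLN, and the CpG at position 232 to 5.96% and 84.4%. The CpG at position 153 of the same stretch was the least methylated of the 7 in pLN, at 37.98%, against 3.33% in mLN. At Shox2 the 6 CpGs ranged from 3.75% to 20.5% in mLN and from 49.9% to 82.8% in pLN, with no overlap. The 11 CpGs of the Gm26523 window ranged from 60.7% to 95.4% in mLN and from 1.67% to 30.7% in pLN. The Wt1 window was more uneven. Its CpG at position 190 stood at 80.8% in mLN and 19.1% in pLN, whereas the CpG at position 233 stood at 15% and 8.18%. Over all member DMRs, 1970 of 2161 CpGs of the SPF table (91.2%) had the sign of their DMR in the GF libraries, and 1647 of 1760 CpGs of the GF table (93.6%) had it in the SPF libraries.

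The 82 regions higher in mLN had a mean level of 64.8% ± 1.23 in mLN SPF (SD, n = 3), 65.998% ± 0.126 in mLN GF (n = 2), 32.998% ± 0.822 in pLN SPF (n = 3) and 33.6% ± 0.159 in pLN GF (n = 2). The 118 regions lower in mLN had 34.3% ± 2.88 in mLN SPF, 30.8% ± 0.0624 in mLN GF, 63.97% ± 0.233 in pLN SPF and 65.9% ± 0.00968 in pLN GF. These means restate the calls, which used the same libraries, and carry no test. In both directions the less methylated node was usually not empty of methylation. The median level of the less methylated node was 32.9% in the regions higher in mLN and 32.6% in those lower in mLN, and that of the more methylated node was 67.6% and 65.6%. The less methylated node was under 20% in 18 of 82 and 32 of 118 regions. The authors describe the sorted cells as heterogeneous, with a subset composition that differs between mLN and pLN. How far composition enters these levels and the differences between nodes was not tested.

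The libraries of the nodes were fully separated in 176 of the 200 regions, in 72 of the 82 higher and 104 of the 118 lower in mLN. Over all 1586 location regions merged within distance classes this share was 80%, against 88% of the members, and nothing is read from it because the same libraries made the calls. One library stood nearer to the other node. Averaged over the 200 regions, with the sign of the call, replicate 3 of mLN SPF lay 28.6 points from the pLN mean, while the other 4 mLN libraries lay between 31.5 and 33.6 points from it. In the regions lower in mLN, replicates 1, 2 and 3 of mLN SPF averaged 31.7, 33.9 and 37.4%, and replicates 1 and 2 of mLN GF 30.8 and 30.7%. In the regions higher in mLN the same libraries averaged 65.7, 65.4 and 63.4% and 65.9 and 66.1%, so that replicate 3 lay nearest to pLN in both directions. The 5 pLN libraries lay between 31.3 and 32.7 points from the mLN mean.

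**Figure D1:**
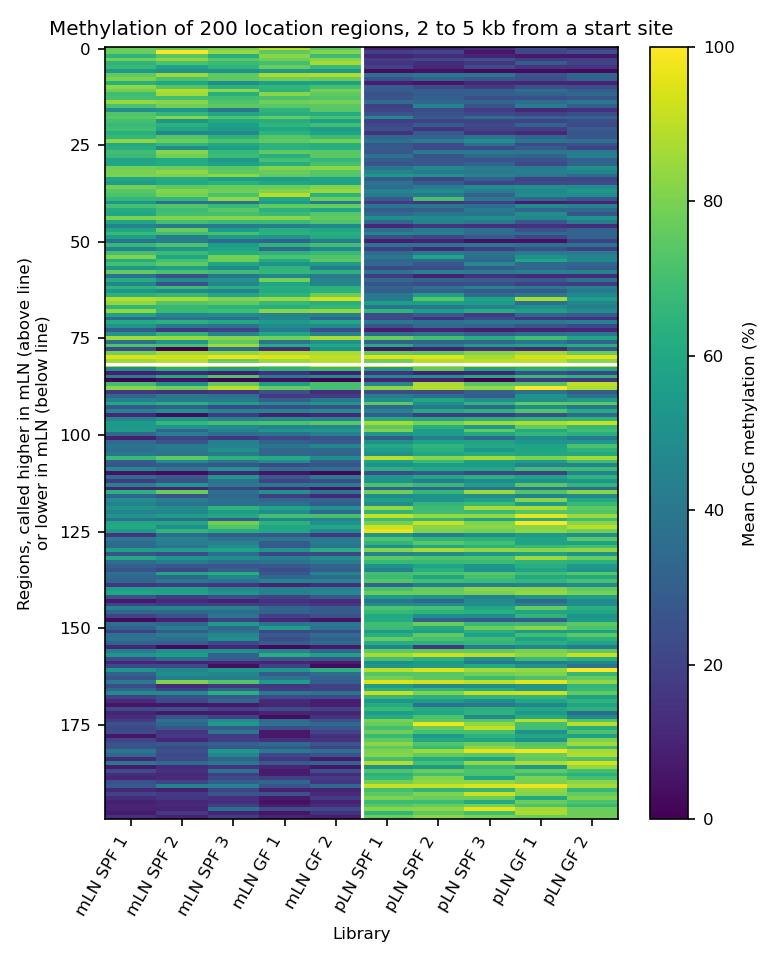
Mean CpG methylation (colour, 0 to 100%) of each of the 200 regions (rows) in each of the 10 libraries (columns, mLN left and pLN right of the vertical line). The 82 regions above the horizontal line were called higher and the 118 below it lower in mLN, and rows within a block are ordered by the difference between nodes.

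Each DMR was then measured in the mice of the other housing condition, whose libraries its call had not used. The 117 SPF-table DMRs were fitted in the 4 GF libraries with limma, with p-values adjusted over all 806 DMRs of that table. The nodes differed in the direction of the call in 110 of 117 (94.0%), against 89.0% of the whole table. No DMR was called in the opposite direction. The mean difference was 36.5 points and the median 33.8 points, with a median SE of 4.74 points, while over the whole table the mean was 31.4 and the median 30.7 points. Of the 56 DMRs higher in mLN 50 were called, and of the 61 lower in mLN 60. The 161 GF-table DMRs, fitted in the 6 SPF libraries, gave 145 calls (90.1%) against 82.4% of their whole table. Their mean difference was 31.2 and their median 28.5 points, with a median SE of 5.37 points, and over all 1293 DMRs 27.3 and 26.4 points. Here 57 of 59 higher and 88 of 102 lower DMRs were called. Without replicate 3 of mLN SPF, the GF-table count was 139 and the mean difference 32.5 points.

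In the unused GF libraries, the 61 SPF-table DMRs lower in mLN averaged 27.5% ± 0.472 in mLN and 67.2% ± 1.37 in pLN (SD, n = 2 each). The 56 higher in mLN averaged 65.2% ± 0.05001 and 32.3% ± 0.7998. In the unused SPF libraries, the 102 GF-table DMRs lower in mLN averaged 34.6% ± 2.64 in mLN and 64.2% ± 0.253 in pLN (SD, n = 3 each), and the 59 higher in mLN averaged 64.5% ± 1.83 and 30.5% ± 1.17. The groups did not overlap, in the direction of the call, in 113 of the 117 SPF-table DMRs (96.6%; 93.7% of the whole table) and in 143 of the 161 GF-table DMRs (88.8%; 81.4% of the whole table). Many regions called in 1 housing condition alone differed in the other as well. Of the SPF-table DMRs that met no GF-table DMR at any distance, 39 of 46 (84.8%) were called in the GF libraries, against 78.5% of the 358 such DMRs of the whole table, with a mean difference of 25.9 points against 24.4. Of the GF-table DMRs that met no SPF-table DMR, 64 of 80 (80%) were called in the SPF libraries, against 73.7% of 773, with a mean difference of 21.2 points against 20.9.

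**Figure D2:**
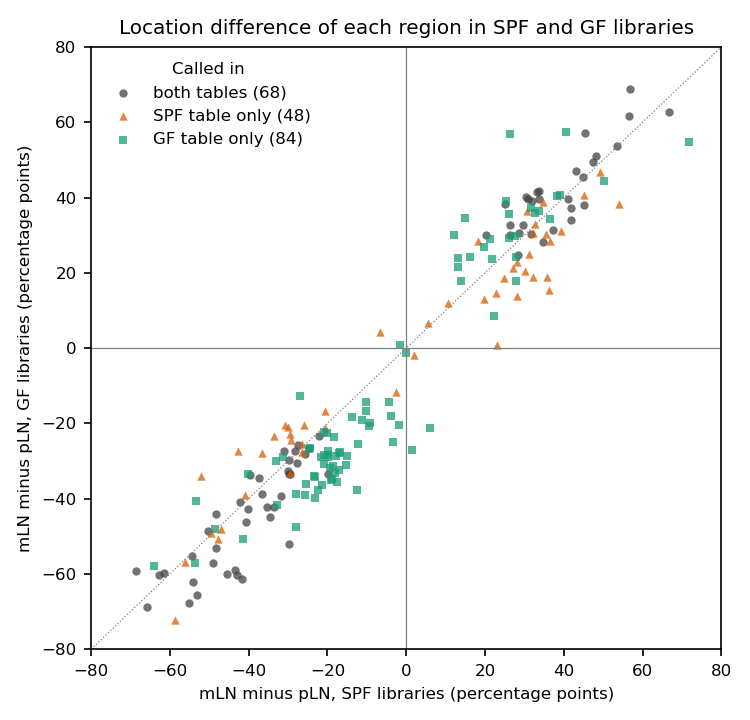
Location difference of each of the 200 regions, mLN minus pLN in percentage points, in the 6 SPF libraries (x axis) and the 4 GF libraries (y axis), with the dotted line marking equal differences. Colours mark the 68 regions of both tables, the 48 of the SPF table and the 84 of the GF table, by DMRs within the distance window. The regions lie almost entirely in the lower left and upper right corners, and a region's own table chose it along 1 of the axes.

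Among the gene lists used here, those of transcription factors took in the most regions, while 125 of the 200 regions belonged to no list. By lists of gene symbols, 35 regions lay next to 21 homeobox genes and 28 next to 18 other developmental transcription factors, together 63 of 200 regions (31.5%). Of these 63, 45 were lower and 18 higher in mLN. In the libraries not used for the call, 27 of 27 SPF-table DMRs and 31 of 32 GF-table DMRs at homeobox genes were called, with median differences of 47.1 and 39.8 points. The other developmental transcription factors gave 22 of 23 and 24 of 25, with medians of 39.1 and 34.2 points. The 125 regions of no list gave 58 of 63 and 84 of 95, with medians of 30.2 and 26.9 points. The lists were not compared by a test.

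T-box genes, which pattern limbs, heart, body wall and urogenital mesenchyme, were all lower in mLN. The 4 member regions of one locus flanked Tbx15, a factor of dorsal skin and skeletal mesenchyme. The region at chr3:99234432-99235739 held 40 CpGs upstream of the TSS and had levels of 13.6, 9.12 and 18.5% in mLN SPF, 9.8001 and 8.38% in mLN GF, 76.6, 82.2 and 79.8% in pLN SPF and 77.5 and 78.2% in pLN GF. Every mLN library was below 20%, and the lowest pLN library was at 76.6%. In the GF libraries its SPF-table DMR differed by -68.1 ± 4.08 points (SE; limma adjusted p = 0.000423), and in the SPF libraries its GF-table DMR by -61.8 ± 4.95 points (SE; limma adjusted p = 9.08e-06). These DMRs lie side by side, with 30 and 11 CpGs, and share only the CpG at chr3:99235489. A second upstream region at chr3:99236284-99236725 differed by -59.7 ± 5.89 points in the GF libraries, and the downstream regions at chr3:99242780-99243217 and chr3:99245045-99245537, both intronic, by -48.2 ± 8.21 and -61.3 ± 4.88 points. All 4 passed the test, so methylation was lower in mLN on both sides of the Tbx15 start site.

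Tbx5, which starts forelimb and heart formation, had 1 region on either side of its TSS. The upstream region at chr5:119829475-119830956 had 25.9, 22.5 and 26.2% in mLN SPF, 27.7 and 20.02% in mLN GF, 75.2, 67.6 and 82.5% in pLN SPF and 75.5 and 69.5% in pLN GF. The downstream region at chr5:119838267-119839034, which overlaps coding sequence, was lower still in mLN, at 7.35, 11.9 and 15.2% in mLN SPF and 10.7 and 6.103% in mLN GF, against 49.7, 54.6 and 66.8% in pLN SPF and 53.2 and 83.6% in pLN GF. The spread of the pLN libraries was wide there, but none reached the mLN range. In the GF libraries the SPF-table DMRs differed by -48.7 ± 4.86 and -59.99 ± 9.81 points (limma adjusted p = 0.000549 and 0.00181). Tbx18, a factor of the epicardium and of ureter mesenchyme, had 2 upstream regions. Its printed region had 39.2, 24.8 and 53.2% in mLN SPF, 41.4 and 36.99% in mLN GF, 80.5, 85.3 and 96.04% in pLN SPF and 97.96 and 86.9% in pLN GF, with replicate 3 of mLN SPF highest among the mLN libraries. The GF libraries gave -53.3 ± 5.25 points (SE; limma adjusted p = 0.000547) for this region. Tbx3, which acts in limb and mammary development, and its neighbour Tbx3os2, a transcript named for the opposite strand, had 3 regions between -31.5 and -36.8 points, and all of their DMRs passed the test.

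Homeobox genes lower in mLN included factors of limb, skin and urogenital patterning, 26 of the 35 homeobox regions in all. En1, which specifies ventral limb and marks a lineage of dermal fibroblasts, had an upstream region at chr1:120598173-120599488 with 8.87, 10.6 and 13.4% in mLN SPF, 4.41 and 9.01% in mLN GF, 68.6, 68.7 and 60.99% in pLN SPF and 77.02 and 71.7% in pLN GF. The highest mLN library was at 13.4% and the lowest pLN library at 60.99%. The SPF-table DMR differed in the GF libraries by -67.7 ± 4.44 points (SE; limma adjusted p = 0.000423). Emx2, a factor of the urogenital ridge and the forebrain, had 3 regions. The upstream one, printed above, had 7.21, 17.03 and 10.5% in mLN SPF, 5.48 and 14.5% in mLN GF, 66.3, 75.3 and 69.3% in pLN SPF and 87.1 and 77.5% in pLN GF and differed in the GF libraries by -72.4 ± 5.51 points (SE; limma adjusted p = 0.000475). The 2 downstream Emx2 regions, whose nearest start was not that of the upstream region, differed between nodes by -60.95 and -54.9 points. Shox2, which is needed for the proximal limb and the sinoatrial node, had 4 regions in one short stretch, all downstream of the TSS, with differences from -43.4 to -63.9 points.

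The printed Shox2 region had 11.6, 8.75 and 20.9% in mLN SPF, 9.05 and 9.85% in mLN GF, 69.6, 65.4 and 65.8% in pLN SPF and 83.5 and 66.4% in pLN GF. The nodes did not overlap, and replicate 3 of mLN SPF was the highest mLN library. Its difference was -65.5 ± 6.35 points (SE; limma adjusted p = 0.000537) in the GF libraries and -53.2 ± 4.77 points (SE; limma adjusted p = 1.51e-05) in the SPF libraries. Hlx, a factor of gut and liver mesenchyme, had a region of 73 CpGs at chr1:184726509-184728400 over its coding exons, with 10.4, 11.5 and 18.8% in mLN SPF, 7.74 and 11.95% in mLN GF, 73.5, 76.7 and 78.99% in pLN SPF and 72.3 and 67.8% in pLN GF. The GF libraries gave -60.2 ± 4.33 points (SE; limma adjusted p = 0.000454). A shorter intronic region at chr1:184728724-184728921 lay at lower levels in both nodes, between 1.28 and 10.7% in mLN and between 19.7 and 44.4% in pLN. Meis1, a cofactor of Hox proteins, had 3 upstream regions with differences of -31.7, -58.2 and -51.7 points. In the printed one, the mLN libraries ranged from 27.8 to 39.97% and the pLN libraries from 70.0 to 93.1%.

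Lmx1b, which specifies dorsal limb, had 2 intronic regions with differences of -41.5 and -49.3 points. Its relative Lmx1a had 1, with -37.9 points. Next to Lmx1b, the noncoding gene C130021I20Rik had a region at chr2:33643620-33646265, where mLN libraries stood between 7.61 and 11.1% and pLN libraries between 40.4 and 54.0%. Pitx1, which marks the hindlimb, had 2 regions at -28.7 and -24.98 points. Six2, a factor of kidney mesenchyme, had 1 region at -23.2 points. Other homeobox regions lower in mLN lay at Tshz2 (-40.99 points), Zfhx3 (-37.8 points) and Hoxd10 (-14.6 points). Hoxd10, a limb and trunk patterning gene, held the one homeobox DMR that did not pass, with -9.26 ± 4.52 points (SE; limma adjusted p = 0.0781) in the SPF libraries.

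Twist1, a bHLH factor of limb and craniofacial mesenchyme, had 4 regions whose differences ran from -7.21 to -56.4 points. The widest member of all was among them, a downstream region of 68 CpGs at chr12:33961083-33964603, with 19.7, 24.7 and 29.2% in mLN SPF, 23.1 and 22.04% in mLN GF, 66.5, 64.4 and 65.96% in pLN SPF and 65.9 and 57.4% in pLN GF. The GF libraries gave -39.1 ± 4.67 points (SE; limma adjusted p = 0.000773). The smallest of the 4, at chr12:33953003-33953216, held 3 CpGs, and its mLN libraries (7.75 to 13.3%) overlapped its pLN libraries (9.11 to 23.8%). Nr2f2, an orphan nuclear receptor of venous and visceral mesenchyme, differed by -38.7 points, and Prdm16, known from brown fat, by -25.5 points. Mecom, a zinc-finger factor of blood stem cells, differed by -26.97 points. All of the tested DMRs of Nr2f2, Prdm16 and Twist1 passed.

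**Figure D3:**
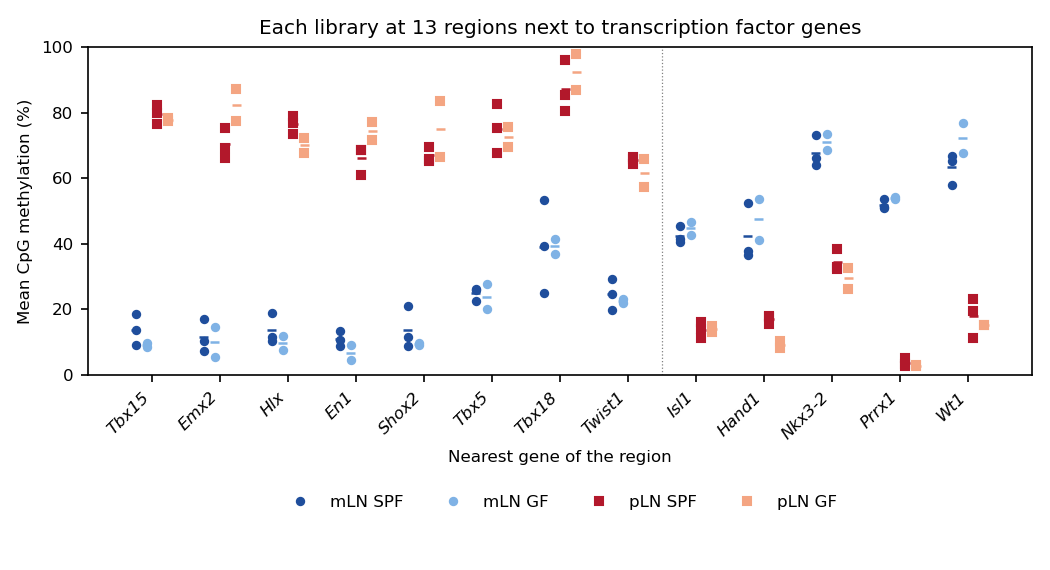
Mean CpG methylation (%) of each library at 13 regions, named by their nearest transcription factor gene. Points are libraries, short bars are group means, circles are mLN and squares pLN, and darker colours are SPF. The 8 regions left of the dotted line were lower and the 5 right of it higher in mLN, with no overlap between the nodes at any of the 13. They were chosen, 1 per gene, and the 3-CpG regions at Twist1 and Wt1, whose nodes overlapped, are not shown. The same libraries made the calls, and the nodes were separated in 88% of all members and 80% of all 1586 location regions.

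The 18 transcription factor regions that were higher in mLN lay next to another set of genes. Wt1, a factor of mesothelium, kidney and gonad, had 3 regions downstream of its TSS. The first, 38 CpGs at chr2:105132996-105133827 over coding sequence, had 66.8, 58.01 and 65.3% in mLN SPF, 76.7 and 67.7% in mLN GF, 19.5, 11.2 and 23.1% in pLN SPF and 15.2 and 15.1% in pLN GF. The nodes were far apart, with the lowest mLN library at 58.0% and the highest pLN library at 23.1%. Its difference was 57.02 ± 4.74 points (SE; limma adjusted p = 0.0005) in the GF libraries and 48.7 ± 4.797 points (SE; limma adjusted p = 1.98e-05) in the SPF libraries. The printed Wt1 region gave 29.9 ± 5.702 points (SE; limma adjusted p = 0.00324) in the GF libraries. Between these, a region of 3 CpGs at chr2:105134139-105134181 did not pass, with 11.96 ± 12.9 points (SE; limma adjusted p = 0.405), and its mLN libraries ranged from 0 to 51.1%.

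Isl1, a LIM homeobox factor of heart progenitors and hindlimb, had 1 region upstream and 2 downstream of the nearest TSS. The start nearest to the downstream regions was not the one nearest to the upstream region. The upstream region, printed in part above, had 45.3, 40.5 and 41.4% in mLN SPF, 42.7 and 46.6% in mLN GF, 11.3, 16.03 and 14.05% in pLN SPF and 14.8 and 13.1% in pLN GF. Low in pLN and intermediate in mLN, it differed in the GF libraries by 33.04 ± 5.11 points (SE; limma adjusted p = 0.00147) over its SPF-table DMR. That DMR begins at chr13:116314004, beyond the printed stretch. Over the GF-table DMR, which holds the printed stretch, the SPF libraries gave 29.7 ± 4.18 points (SE; limma adjusted p = 0.000127). The downstream region at chr13:116298748-116300178, over coding sequence, was higher in both nodes, with mLN libraries between 58.8 and 72.4% and pLN libraries between 20.6 and 26.5%. Nkx3-2, which acts in spleen, gut and skeletal mesenchyme, had a region of 47 CpGs at chr5:41759738-41761629 with 66.05, 73.1 and 64.1% in mLN SPF, 73.3 and 68.6% in mLN GF, 32.96, 32.2 and 38.5% in pLN SPF and 32.6 and 26.3% in pLN GF. The GF libraries gave 41.5 ± 4.56 points (SE; limma adjusted p = 0.000676).

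Prrx1, a homeobox factor of limb and connective-tissue mesenchyme, had the lowest pLN levels of these regions. At chr1:163308926-163310398 the levels were 53.7, 51.2 and 51.01% in mLN SPF, 53.7 and 54.2% in mLN GF, 3.37, 5.07 and 2.58% in pLN SPF and 3.13 and 2.57% in pLN GF. The pLN libraries were almost unmethylated and the mLN libraries were between 51.01 and 54.2%. The GF libraries gave 51.1 ± 3.95 points (SE; limma adjusted p = 0.000475) and the SPF libraries 67.8 ± 4.75 points (SE; limma adjusted p = 8.86e-06) over the GF-table DMR. Immediately beside it, 2 regions were assigned to the noncoding gene Gm26523. The one at chr1:163307461-163308586, printed in part above, had 78.1, 83.4 and 73.8% in mLN SPF, 77.7 and 81.8% in mLN GF, 18.5, 21.7 and 25.1% in pLN SPF and 17.7 and 18.6% in pLN GF, and the GF libraries gave 61.7 ± 4.13 points (SE; limma adjusted p = 0.000423). The 3 regions thus formed one stretch that was higher in mLN and rested on neighbouring CpGs of a single locus.

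Other transcription factors higher in mLN were Hand1 (31.7 points), a bHLH factor of lateral mesoderm and heart, and Tcf21 (25.1 points), a bHLH factor of visceral mesenchyme and spleen. Hand1 had 52.5, 36.5 and 37.6% in mLN SPF, 53.6 and 41.3% in mLN GF, 17.6, 15.4 and 18.1% in pLN SPF and 8.101 and 10.4% in pLN GF, and its SPF-table DMR differed in the GF libraries by 38.2 ± 5.37 points (SE; limma adjusted p = 0.00106). Tcf21 ranged from 24.9 to 45.7% in mLN and from 8.94 to 16.9% in pLN, without overlap over the whole region. Over its GF-table DMR alone, the nodes were not fully separated in the SPF libraries, at 19.97 ± 6.59 points (SE; limma adjusted p = 0.0164). Foxf2, a forkhead factor of gut mesenchyme, differed by 20.2 points, with 16.3 ± 4.55 points (SE; limma adjusted p = 0.00706) in the SPF libraries. Meox2 and Pou1f1, homeobox factors of somites and pituitary, differed by 28.1 and 45.1 points. Erg, an ETS factor of endothelium and cartilage, and Runx1, a factor of blood formation, differed by 35.4 and 29.5 points. Every tested DMR of these 7 genes passed in the unused libraries.

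Several genes carried more than 1 member. The 200 regions included 71 at 30 genes with at least 2, and at none of these genes did the regions differ in direction. Regions at one gene share a locus and are not independent. Genes near each other could differ in direction. The region of 4930488B22Rik at chr1:184715575-184718978 was higher in mLN, and the nearby Hlx region at chr1:184726509-184728400 was lower. Where regions lay on both sides of the TSS, as at Tbx15, Tbx5, En1 and Twist1, the sign was the same on both sides. At Emx2 and Isl1 the upstream and downstream regions also had the same sign, but their distances were measured from different starts. Within a DMR, the side nearer the TSS did not stand out. In the 75 SPF-table DMRs with at least 10 CpGs, the mean difference in the GF libraries was 35.97 points in the near part and 35.7 points in the far part, each holding an equal share of the CpGs. The 68 such GF-table DMRs gave 29.9 and 29.05 points in the SPF libraries. Across the window, the mean difference of SPF-table DMRs in the GF libraries was 36.1 points at above 2000 to 3000 bp, 37.9 points up to 4000 bp and 35.6 points up to 5000 bp. For GF-table DMRs in the SPF libraries these means were 29.004, 30.01 and 36.1 points.

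**Figure D4:**
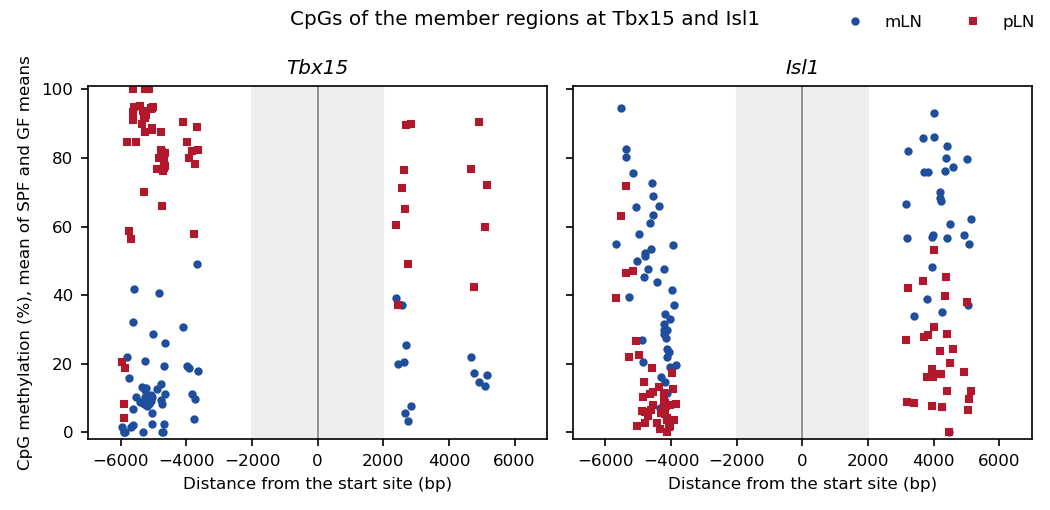
Methylation (%) of each CpG inside the member regions at Tbx15 (4 regions) and Isl1 (3 regions) against its distance in bp from the start site nearest to its region, negative values lying upstream. At Isl1 the upstream and downstream regions have different nearest starts, so the vertical line is not a single site there. Circles are mLN and squares pLN, each the mean of its SPF and GF means, and the grey band is the excluded interval of 2000 bp on either side. At Tbx15 most CpGs lie higher in pLN on both sides, and at Isl1 most lie higher in mLN on both sides.

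Regions at genes of secreted signals and their modulators were few. Of the list of BMP, TGF-beta, Wnt, Hedgehog, FGF and Notch genes, 4 regions were members, 2 in each direction, and 1 of 2 SPF-table and 2 of 2 GF-table DMRs passed in the unused libraries. Sfrp5, a secreted inhibitor of Wnt signalling, was higher in mLN, with 78.9, 76.6 and 74.2% in mLN SPF, 80.9 and 82.3% in mLN GF, 38.7, 47.2 and 42.4% in pLN SPF and 40.7 and 49.8% in pLN GF. Its difference in the SPF libraries was 33.8 ± 4.46 points (SE; limma adjusted p = 8.90e-05). Gdf6, a BMP family ligand of joint formation, had 61.9, 70.1 and 77.4% in mLN SPF, 61.2 and 74.5% in mLN GF, 33.1, 33.8 and 33.4% in pLN SPF and 59.3 and 45.8% in pLN GF. The SPF libraries were separated by a wide gap, but in the GF libraries the difference of 15.3 ± 6.79 points (SE; limma adjusted p = 0.0726) missed the threshold. Dhh, a Hedgehog ligand, and Wnt2b, a Wnt ligand, were lower in mLN, with differences of -25.6 and -25.6 points, and both passed.

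Of the immune mediator list, 6 regions at 4 genes were members, and 2 of 2 SPF-table and 2 of 5 GF-table DMRs passed. Ptger2, a receptor for prostaglandin E2, was higher in mLN, between 72.0 and 83.4% against 37.6 to 49.1% in pLN, and the GF libraries gave 38.8 ± 4.08 points (SE; limma adjusted p = 0.000608). Ptgs1, the constitutive cyclooxygenase, was lower in mLN at chr2:36244764-36245328, with 48.4, 48.5 and 63.6% in mLN SPF, 41.8 and 38.4% in mLN GF, 91.9, 80.6 and 91.5% in pLN SPF and 93.7 and 76.1% in pLN GF. A second Ptgs1 region of 3 CpGs was at 83.3% or above in every library and did not pass, with -0.14 ± 4.702 points (SE; limma adjusted p = 0.978). Aldh1a2, which makes retinoic acid, had 2 intronic regions. The first had 31.6, 43.1 and 33.2% in mLN SPF, 55.6 and 38.2% in mLN GF, 68.3, 60.8 and 77.7% in pLN SPF and 82.4 and 71.4% in pLN GF, and the SPF libraries gave -32.9 ± 5.59 points (SE; limma adjusted p = 0.000381). The second gave -3.97 ± 9.55 points (SE; limma adjusted p = 0.703). Adamts17, a secreted metalloprotease of the matrix list, had 2 intronic regions with differences of -22.5 and -23.6 points, both past the threshold in the SPF libraries.

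Among genes outside the lists, the regions with the largest summed score of the authors in both tables included 4930488B22Rik, 1700037C06Rik, Dleu2 and Elavl4. 1700037C06Rik had 80.3, 71.2 and 75.2% in mLN SPF, 78.3 and 76.7% in mLN GF, 25.3, 31.7 and 27.1% in pLN SPF and 24.6 and 31.6% in pLN GF. The region of Elavl4, which encodes a neuronal RNA-binding protein, lay between 19.5 and 24.9% in mLN and between 59.98 and 67.1% in pLN. The noncoding gene 4930505G20Rik had 3 regions higher in mLN, of 53.6, 37.7 and 35.3 points, and all of their DMRs passed. Of the regions called in SPF mice alone, the highest scores lay at C87198, Oxtr, which encodes the oxytocin receptor, and Hist1h2ba on the higher side and at Twist1, Sdk2 and Six2 on the lower. Oxtr had 65.96, 66.8 and 64.6% in mLN SPF, 62.7 and 66.1% in mLN GF, 38.9, 40.3 and 43.4% in pLN SPF and 49.1 and 42.6% in pLN GF. Although called within the window in SPF mice alone, these 6 DMRs all differed in the GF libraries. C87198 differed by the smallest amount (14.7 points) and Twist1 by the largest (-39.1 points). Called in GF mice alone were Gm26184, Rap2a and Mir6539 on the higher side, at 34.3, 27.7 and 39.4 points, and Gm12490, Gm14205 and Tmem156 on the lower, at -16.1, -24.6 and -22.2 points.

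A small group of members did not hold up. In the unused libraries 7 SPF-table and 16 GF-table DMRs did not pass, and 4 and 9 of these had fewer than 5 CpGs. The sign was opposite to the call in 2 SPF-table and 3 GF-table DMRs, none of which passed. They lay at Gm23992, at an unnamed gene on chromosome 6, at Bcor, at Sim1 and at Tnfrsf10b. At Bcor, which encodes a repressor partner of BCL6, the GF-table DMR gave 6.16 ± 7.34 points (SE; limma adjusted p = 0.443) in the SPF libraries, and the levels were 42.2, 60.6 and 72.5% in mLN SPF, 41.7 and 48.4% in mLN GF, 46.4, 50.2 and 60.2% in pLN SPF and 67.9 and 64.4% in pLN GF. At Tnfrsf10b, a death receptor of the TNF family, all 10 libraries lay between 77.4 and 90.1%. At Gm23992 all lay between 86.4 and 96.4%, and neither housing condition showed a separation of the nodes in these unsmoothed values. The difference in the libraries that made the call was itself below 10 points in 7 of the 278 member DMRs.

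Housing was not used by the rule and was tested with limma over all 10 libraries, with location in the model and p-values adjusted over the 1586 location regions merged within 4 distance classes. No member passed (0 of 200), against 0% of all 1586 regions. At an unadjusted p under 0.05 there were 12 members (6%), against 3.78% of all. The smallest adjusted p of a member was 0.995. The median size of the housing difference was 3.03 points with a median SE of 3.85 points, and the largest was 13.4 points. Methylation was higher in SPF mice in 103 and lower in 97 regions. The 3 smallest housing p-values lay at Chst2, a carbohydrate sulfotransferase, at Meis1 and at Slc38a10, an amino acid transporter. Chst2 had 83.5, 73.2 and 75.7% in mLN SPF, 66.97 and 62.8% in mLN GF, 56.1, 56.8 and 53.7% in pLN SPF and 36.5 and 45.95% in pLN GF. The SPF libraries were the higher ones in both nodes, and its housing difference was 13.4 ± 3.19 points (SE; limma adjusted p = 0.995). None of the 200 regions overlapped a DMR of the tables that compared SPF with GF mice. The authors reported few such DMRs, and the overlap was not counted over all location regions, so nothing is read from it.

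The location difference was then compared between housing conditions by an interaction term. No member passed (0 of 200; 0% of all 1586 regions), and 18 (9%) had an unadjusted p under 0.05, against 8.70% of all. The smallest adjusted p was 0.278. The median size of the interaction was 7.03 points with a median SE of 7.40 points, so a difference of that size between the housing conditions was not detectable here. Most regions were chosen on a difference in 1 housing condition, which enters this term. The 3 smallest p-values lay at Isl1, Sim1 and 4931403E22Rik, each called in GF mice alone. The Isl1 region at chr13:116298197-116298417 had 49.2, 52.2 and 39.6% in mLN SPF, 65 and 74.1% in mLN GF, 21, 23.5 and 17.8% in pLN SPF and 11.3 and 14.1% in pLN GF. Its nodes were separated in both housing conditions, with a location difference of 26.3 points in SPF and 56.8 points in GF libraries. Sim1, a factor of hypothalamus and kidney, had 33.8, 40.5 and 36.4% in mLN SPF, 16.7 and 17.7% in mLN GF, 41.9, 36.6 and 27.9% in pLN SPF and 50.8 and 37.8% in pLN GF, with overlapping nodes in SPF mice.

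By the annotation of GENCODE M21, 29 members overlapped coding sequence, 14 a UTR and no coding sequence, and 19 another exon, while 82 were intronic and 56 intergenic. Relative to the nearest TSS, 112 lay downstream and 88 upstream. Regions lower in mLN had 57 upstream and 61 downstream, and those higher in mLN 31 and 51. Widths ran from 27 to 3521 bp with a median of 567.5 bp, and the measured CpGs from 3 to 102 with a median of 11. The median GC content was 46.4% and the median density 1.78 CpGs per 100 bp, close in regions higher (45.3% and 1.71) and lower in mLN (47.2% and 1.83). With the transcript starts of GENCODE M21 in place of the deposited distances, 161 regions stayed in the window, 35 were nearer to a start and 4 farther away.

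Short motifs were counted in a window of 300 bp around the centre of each region, on both strands. TAATTA, a core read by many homeodomains and its own reverse complement, was found in 15 of 200 members (7.5%) and in 9.74% of the 1386 location regions of the other distance classes. It was found in 11 of the 82 members higher in mLN and 4 of the 118 lower in mLN, and in the other classes in 92 of 709 and 43 of 677. AGGTGT, the core of the T-box site, was found in 13% of members and 13.78% of the others, and TGACAG, a core read by Meis factors, in 20% and 23.52%. TGACAG ends and AGGTGT begins with AG, so matches of these motifs can overlap. No count was tested.

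Transcription factor genes made up a larger share of the members than of the location regions at other distances. By the same lists, 31.5% of the 200 members lay next to a listed transcription factor, against 16.9% of 314 regions within 2 kb, 12.3% of 608 at 5 to 50 kb and 5.82% of 464 beyond 50 kb. Counted by gene, 39 of 157 nearest genes (24.8%) were listed factors, against 12.4, 7.35 and 6.04%. The share of regions higher in mLN was 41% among members, between the 35.4% within 2 kb and the 50.8% at 5 to 50 kb, and 62.3% beyond 50 kb. In the unused libraries, the mean difference of SPF-table DMRs was 36.5 points in members and 30.4, 31.4 and 29.7 points in the classes within 2 kb, at 5 to 50 kb and beyond 50 kb. For GF-table DMRs it was 31.2 points in members and 22.4, 27.6 and 28.6 points in the others. The share called was 90.1% in GF-table members and 70.8, 83.3 and 85.6% in the other classes. Neighbouring regions share loci, and the differences between classes were not tested.

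**Figure D5:**
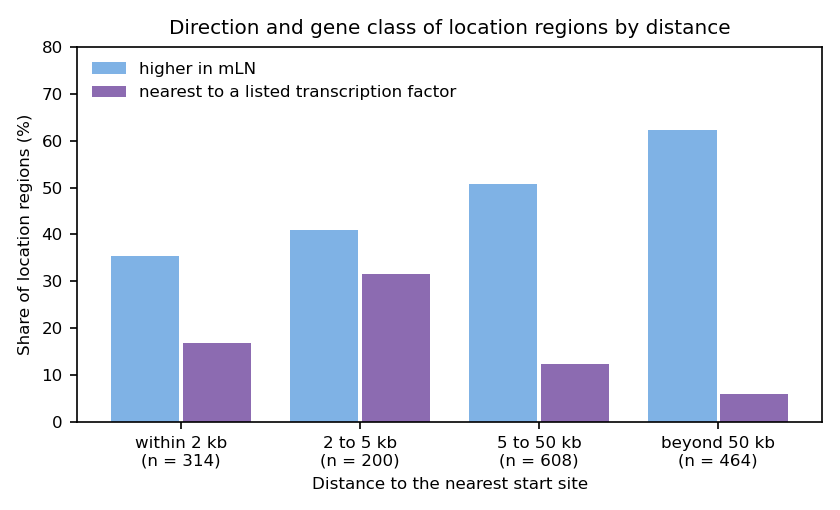
Share (%) of location regions that were higher in mLN (left bars) and that lay nearest to a listed transcription factor gene (right bars), by distance to the nearest start site, with the number of regions under each class. The share at transcription factors is 31.5% at 2 to 5 kb and 5.82% beyond 50 kb, and the share higher in mLN runs from 35.4% to 62.3%.

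The distance limits cut through continuous values. Just inside the lower limit lay DMRs of Lmx1b at 2011 bp and Gtf2a1l at 2012 bp, with differences in the unused libraries of -42.8 and 24.8 points, and just outside it Rpsa-ps9 at 1985 bp and Gm23609 at 1993 bp, with -20.996 and -12.3 points. Just inside the upper limit lay Wscd2 at 4947 bp and Gm9946 at 4982 bp, with 6.61 and 21.3 points, and just outside it Tbr1 at 5044 bp and Cmtr2 at 5051 bp, with -26.1 and 30.3 points.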

How the data were processed

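Reads were trimmed by the authors with cutadapt 1.4 after FastQC 0.11.1 and aligned to GRCm38 with BSMAP 2.4.3 (versions from the submitters' processing notes). The authors kept unique, properly paired, de-duplicated reads, smoothed the methylation of CpGs that passed a coverage minimum with bsseq and searched pairs of groups for DMRs of at least 3 CpGs and a difference of at least 0.25. The deposited DMR tables hold the authors' group means, their difference and a score that sums t-statistics; the score ranked regions, the difference served as a limit, and neither is printed. A further deposited table lists the CpGs within DMRs with their unsmoothed fraction of methylated reads in every library. The reads behind each fraction were not used here, so depth per value is unknown and no counting interval is given; per library, 99.6% to 99.9% of its CpGs carried a value.

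The level of a region in a library is the mean fraction, as a percent, over its CpGs, each used once if all 4 groups had a value for it (3104 of 3109). Differences are mLN minus pLN in percentage points, and the sign of the GF table was turned accordingly. Named differences with no error are the mean of the SPF and GF differences over all 10 libraries and describe the call. Tests used limma 3.58.1 in R 4.3.3 (lmFit, eBayes, two-sided, Benjamini-Hochberg over the whole table, threshold 0.05), with each table fitted in the libraries that had not been used to call it. In simulated data with 200 changed rows, a change of 25 points was recovered in 81.5% (SPF table in GF libraries), 79% (GF table in SPF libraries), 94% (housing) and 41% (interaction) of them. No other size or number of changes was simulated, and the largest housing difference of a member was 13.4 points. Replicates differed (at most 14.2% of CpGs had identical values in a pair), so all libraries were kept. Position, side of the TSS and sequence came from GENCODE M21 and GRCm38, where the table's CpGs carried C followed by G.

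The members, the gene lists (by starts of gene symbols), the tests and the alternatives were chosen with earlier results of these data known. Regions were named by these rules: the 6 with the largest summed score per direction in both tables, the 3 per direction in 1 table alone, every homeobox region (a few are not reported here), the top region of each other list, the 4 largest of opposite sign in unused libraries, the 3 smallest housing and interaction p-values and the DMRs next to the distance limits. Other regions of listed genes and of genes with several regions were named after their values were seen. Alternatives were CpGs with a value in all libraries, medians over CpGs, a minimum of 5 CpGs, a difference of at least 0.35, a narrower distance window, merging at a larger overlap, log2 odds, robust eBayes, a replicate block and leaving out each library. The DMR tables that compared SPF with GF mice were used only for overlap.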

Additional observations from a re-analysis of the deposited data

How the results depend on the processing

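The counts of called DMRs stayed within 1.5 times of 110 (SPF table in GF libraries) and 145 (GF table in SPF libraries) except where the alternative itself kept fewer DMRs. With a difference of at least 0.35 in the authors' tables, 41 of 41 and 53 of 53 DMRs were called, their mean differences were 50.8 and 44.98 points, and 59 regions remained. With a window above 2500 and at most 4500 bp, 70 of 74 and 95 of 102 were called, the SPF-table mean was 37.5 points and 125 regions remained. Medians over CpGs gave mean differences of 43.3 and 34.7 points with 104 and 131 calls, and a minimum of 5 CpGs gave 37.2 points for the SPF table. Leaving out each library in turn gave 103 to 106 and 133 to 139 calls, mean differences of 36.2 to 36.7 and 30.3 to 32.5 points, and 0 calls for housing and for the interaction. The housing and interaction counts were 0 under every alternative run, with smallest adjusted p-values (limma) between 0.674 and 0.999 and between 0.226 and 0.642. Distances from GENCODE M21 starts, an alternative added after the data were seen, gave 91 of 97 and 116 of 128 calls in 161 regions. The share called over the whole table is not given for these alternatives, so nothing particular to the members is read from their counts. Of 804 alternative values for 67 named regions, 766 moved by less than the spread between replicates and 38 by more. The sign changed in 13 values of 4 regions, none with a called DMR, at Tnfrsf10b, Gm23992 and an unnamed gene on chromosome 6 and, with medians over CpGs (5.03 points), at Bcor.

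Replicates of the same number did not deviate together between the nodes (correlations over 1586 regions of 0.0137, 0.0390 and -0.0284 in SPF and -0.0198 in GF mice), and not every library correlated best with its own number. A replicate block gave 109 and 147 location calls and 0 for housing and the interaction. Regions of 3 or 4 CpGs are the least precise, and with 2 libraries per node in GF mice the interaction has little power.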

Other observations

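Among genes of no list, Eya1, a cofactor and phosphatase acting in kidney, ear and muscle, had 2 intronic regions higher in mLN. The one at chr1:14306372-14307623 had 58.8, 61.4 and 57.5% in mLN SPF, 62.2 and 70.8% in mLN GF, 25.8, 27.2 and 31.9% in pLN SPF and 21.9 and 32.3% in pLN GF, and the nodes did not overlap. These genes were picked after their values were seen. Otol1, which encodes a collagen-like protein of the inner ear, had an upstream region at chr3:70003195-70003349 that differed by -55.4 points between the nodes and by -53.8 ± 6.26 points (SE; limma adjusted p = 4.61e-05) in the SPF libraries, which its call had not used. A second Otol1 region at chr3:70002412-70002886 differed by -13.5 points and did not pass, with -10.3 ± 4.58 points (SE; limma adjusted p = 0.0578) in the SPF libraries. A region at the predicted gene Gm15538 rested on 3 CpGs, with 77.4, 100 and 84.4% in mLN SPF, 75 and 81.4% in mLN GF, 19.4, 21.2 and 6.06% in pLN SPF and 21.5 and 25.4% in pLN GF. In the SPF libraries its difference was 71.7 ± 6.58 points (SE; limma adjusted p = 1.58e-05). Cebpa and Cyp1b1, which encode a transcription factor of fat and myeloid cells and a cytochrome P450 enzyme, had regions higher in mLN by 22.8 and, for Cyp1b1, 21.03 and 25.5 points.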
